A study of Mus musculus with 5 samples.

Results

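Peaks of SOX4 and RELA were examined at 50 extracellular matrix and matrix protease genes of mouse fibroblast-like synoviocytes (FLS), the fibroblasts of the joint lining. The genes are a given list of matrix components, cross-linkers, receptors, proteases and protease inhibitors, and they are 50 of the 21938 protein-coding genes on the mouse chromosomes (mm10, GENCODE vM21). A peak was assigned to a gene when its summit, the base of highest signal, lay in the gene body or at most 50 kb upstream of the gene start. SOX4 peaks or RELA peaks of any list were found at 4 of the 50 genes, Col6a3, Prg4, Hmcn1 and Lama2. That is 8.0%, beside 9.98% of all protein-coding genes. The shares of genes of like length, described below, would give 12.7%. The other 46 held none, among them the 10 proteases and the 3 protease inhibitors.

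The peaks come from ChIP-seq of wildtype C57BL/6 FLS for which the antibody was raised to either SOX4 or RELA (p65). FLS were either untreated or given 10 ng/mL of tumor necrosis factor (TNF) for 16 h, which gives 4 lists, named here by factor and treatment (for example SOX4 TNF). DNA of 3 cultures was pooled before each library was made, so every condition is 1 library without replicates and no test between conditions was possible. Untreated FLS gave 192 SOX4 and 561 RELA peaks and TNF-treated FLS gave 543 SOX4 and 2502 RELA peaks, with median widths of 56 bp to 60 bp and median fold enrichments over the background of 8.15 to 9.62. These widths are below the fragment length of 300 bases set for the peak search. Why the peaks are this narrow was not tested. A summit lay on a soft-masked base of the reference, which marks repeats and low-complexity sequence, in 50% to 74.9% of the peaks of a list. On chromosome Y lay 159 of the RELA untreated and 432 of the RELA TNF peaks, but 0 peaks of either SOX4 list. None of the 50 genes is on that chromosome, yet its peaks enter the RELA ranks and medians and the site shares below. The lists give neither read depth nor expression, so the labelled cell type could not be checked against marker genes.

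FLS make much of the matrix of the synovial membrane and the lubricating proteins of the joint fluid. In inflamed joints they also release metalloproteinases that cut collagen and proteoglycan, and the TIMP proteins inhibit these enzymes. RELA is the subunit of NF-κB that enters the nucleus when TNF is sensed, and SOX4 is a transcription factor of the SoxC group that binds DNA through an HMG box.

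The summits at the 4 genes fell into 5 sites, and all 4 genes are on the minus strand. The sequences of 4 of them are shown because the peaks of the matrix genes rest on these few stretches. They are 100 bases of mm10, read on the plus strand, and capitals mark the bases inside the deposited peak of the list with the highest fold enrichment at that site. For Prg4 the stretch begins at the first base beside the nearest annotated exon, so that the exon is left out, and all its bases lie inside the peak. The exon number in its label was not checked against single transcripts. Intron here means bases of the gene body outside annotated exons.
Col6a3 upstream site, chr1:90862479-90862578: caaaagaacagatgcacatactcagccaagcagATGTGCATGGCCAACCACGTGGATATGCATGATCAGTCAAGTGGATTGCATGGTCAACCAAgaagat
Prg4 intron beside exon 2, chr1:150465599-150465698: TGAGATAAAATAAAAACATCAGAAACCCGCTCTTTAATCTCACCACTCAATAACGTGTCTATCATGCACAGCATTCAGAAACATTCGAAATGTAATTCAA
Hmcn1 intron site, chr1:150793697-150793796: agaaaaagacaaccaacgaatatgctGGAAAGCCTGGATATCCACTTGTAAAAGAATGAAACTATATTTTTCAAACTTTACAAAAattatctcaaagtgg
Lama2 intron site near the start, chr10:27597375-27597474: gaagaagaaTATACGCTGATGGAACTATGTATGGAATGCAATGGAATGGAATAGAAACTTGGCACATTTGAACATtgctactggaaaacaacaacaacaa

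At each of the 5 sites the 50 bases around the summit occur once in the reference as an exact match on either strand. Copies with mismatches were not searched for.

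**Figure D1:**
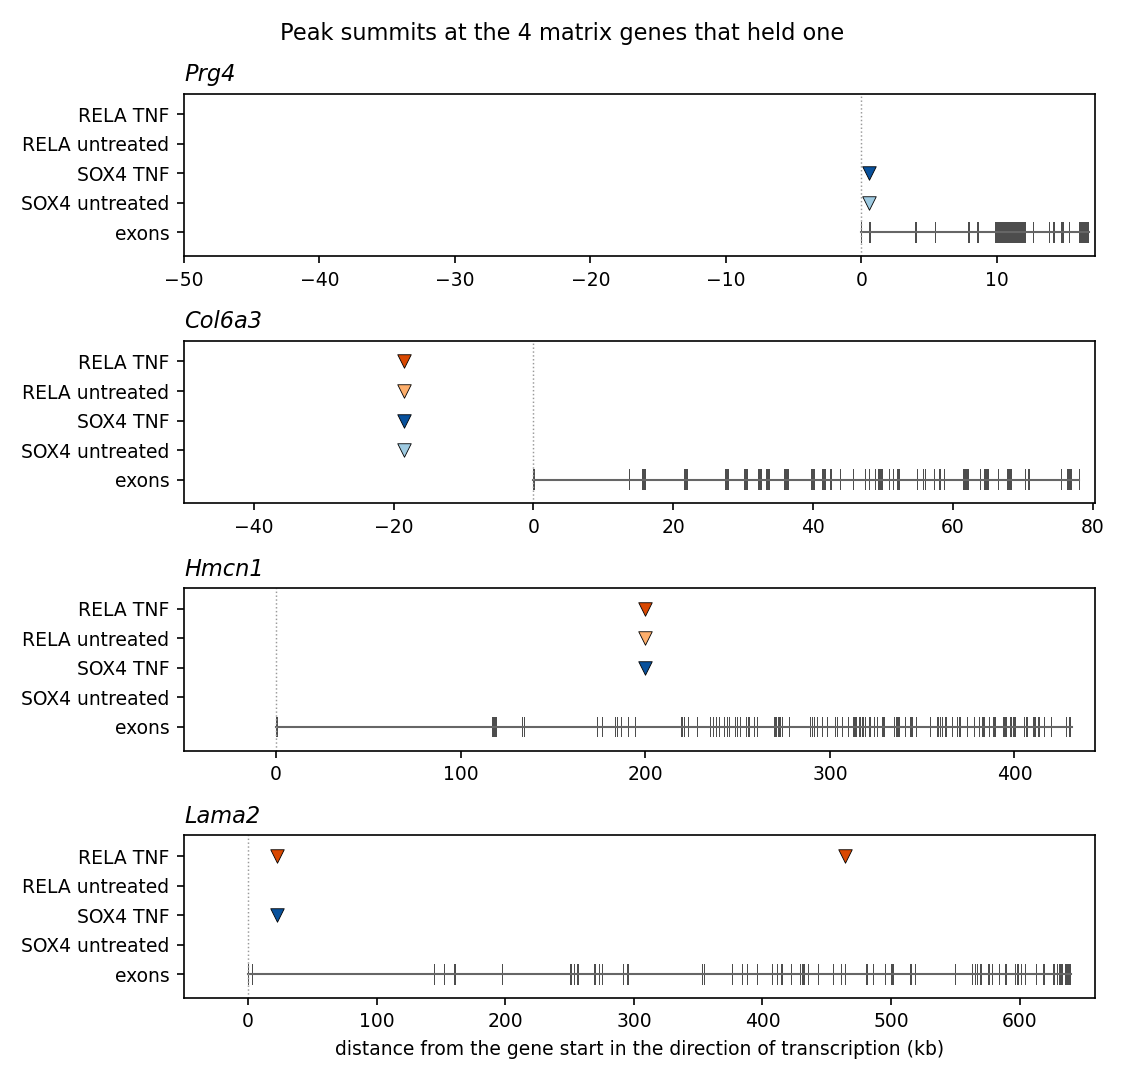
Positions of the peak summits (triangles, 1 row for each list) along Prg4, Col6a3, Hmcn1 and Lama2, with the exons as grey boxes and the distance from the gene start in kb on the x axis, which differs in scale between genes. The Prg4 summits sit at 0.558 kb and the Col6a3 summits upstream at -18.558 kb, whereas the Hmcn1 and Lama2 summits lie in introns of long genes.

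Prg4 encodes lubricin, the proteoglycan that lubricates cartilage and is secreted by the cells of the joint lining. Its site was the strongest SOX4 site among the matrix genes. Fold enrichment for SOX4 reached 19.02 in untreated FLS and 26.1 with TNF, and neither RELA list had a peak there. These values ranked 9 of 192 and 6 of 543 in their lists, with a −log10 q of 38.1 and 65.4, where q is the p-value of the peak caller after its correction for multiple testing. The peak was 153 bp wide in both lists, rank 2 and rank 3 by width. In the SOX4 TNF list it ran from base 150465558 to base 150465710 of chromosome 1. It covered 16 bases of coding sequence and 25 bases of 5′ UTR in an annotated exon, then 112 bases beyond the upstream edge of that exon. Its summit lay 558 bp inside the annotated gene and 9 bp upstream of the exon. The exons of all annotated transcripts were pooled, so whether this edge is a splice site or the start of a transcript was not determined. The summit base is soft-masked.

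A peak this close to a gene start was uncommon. Only 9 of the 543 SOX4 TNF summits (1.66%) lay within 1 kb of the start of a protein-coding gene, and that of Prg4 had the highest fold enrichment of the 9. In the SOX4 untreated list there were 6 such summits, and Prg4 ranked 2. A site with summits of both SOX4 lists and of no RELA list was also uncommon, with 4 of the 2768 sites of the series (0.145%). Among the 142 SOX4 TNF summits that had no summit of either RELA list within 50 bp, the median fold enrichment was 7.13 and Prg4 ranked 1. It also ranked 1 of the 32 such summits of the SOX4 untreated list. The nearest RELA summits were far from it, 167077 bp away in the RELA TNF list and 328140 bp away in the RELA untreated list. The latter is the Hmcn1 site, since Hmcn1 is a neighbour of Prg4 on chromosome 1. A peak that is not listed does not show that signal was absent, because coverage was not used here.

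**Figure D2:**
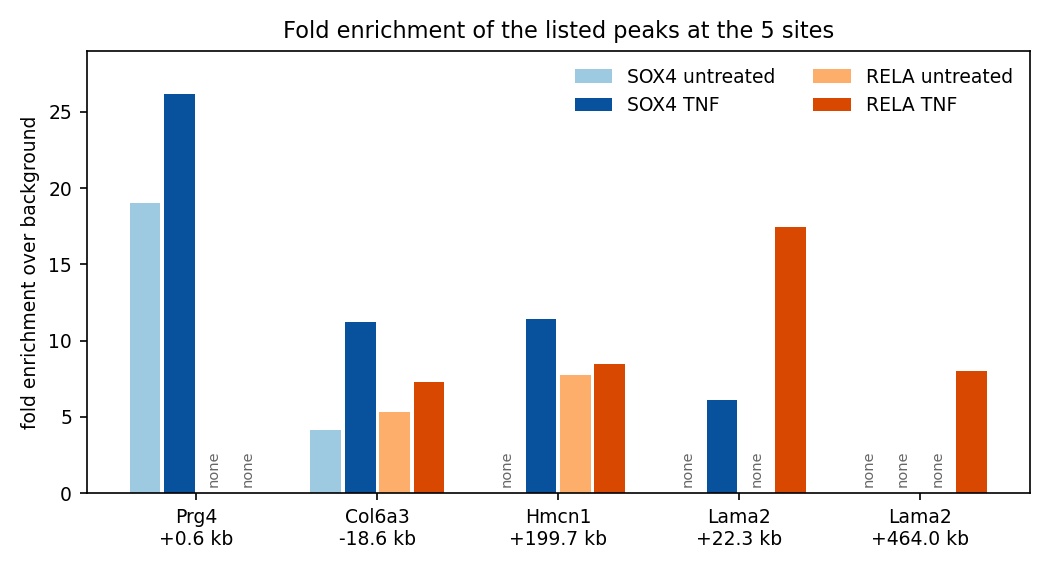
Fold enrichment over the background (y axis, linear from 0) of each listed peak at the 5 sites, 1 bar for each list and 1 library for each bar, with "none" where a list has no peak. The x axis gives each gene and the distance of the site from the gene start in kb. The Prg4 bars reach 19.02 and 26.1 for SOX4 with none for RELA, and the Lama2 site near the start is the one with both TNF bars where that of RELA, 17.5, is above that of SOX4, 6.12.

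Col6a3 encodes the α3 chain of collagen VI, which forms beaded filaments around cells. It was the matrix gene with a peak in all 4 lists, a pattern held by 149 of the 2768 sites (5.38%). The 4 summits lay within 23 bp of each other about 18.6 kb upstream of the gene, between 18558 bp and 18581 bp from its start, outside soft-masked sequence. The gene itself runs from base 90765923 to base 90843971 of chromosome 1. The summits also fell in the 50 kb upstream of Gm36970, a transcript annotated inside Col6a3, and the nearest protein-coding start was that of Col6a3. For SOX4 the fold enrichment was 4.17 untreated and 11.2 with TNF, and for RELA it was 5.32 untreated and 7.27 with TNF. Only the SOX4 TNF value stood above the median of its list, at rank 140 of 543. The others were among the weak peaks of their lists, at rank 186 of 192, 538 of 561 and 2161 of 2502.

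Hmcn1 encodes hemicentin-1, a very large immunoglobulin-domain protein of basement membranes and other matrix. Its site lay in an intron, 199.7 kb from the start and 4975 bp from the nearest exon, on a soft-masked base. With TNF the fold enrichment was 11.4 for SOX4 and 8.48 for RELA. Without TNF it was 7.72 for RELA, and SOX4 had no peak. The 3 summits lay within 13 bp of each other. The SOX4 TNF peak was in the upper part of its list, at rank 128 of 543. Both RELA peaks were below their medians, at rank 321 of 561 and 1612 of 2502. This combination of lists was found at 152 of the 2768 sites (5.49%).

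Lama2 encodes the laminin α2 chain, a basement membrane protein whose loss in people causes a muscular dystrophy. Its site near the start lay in an intron 22.3 kb from the start, outside soft-masked sequence. Both TNF lists had a peak there, with summits 5 bp apart, and neither untreated list had one. RELA reached a fold enrichment of 17.5, rank 367 of 2502, and SOX4 one of 6.12, rank 482 of 543. It was thus among the stronger RELA TNF peaks and among the weaker SOX4 TNF peaks. Sites in both TNF lists alone numbered 73 of 2768 (2.64%). The other Lama2 site lay in an intron 464.0 kb from the start and 229 bp from an exon, on a soft-masked base. It was listed for RELA TNF alone, the commonest pattern of the series with 1956 sites (70.7%), enriched 7.98-fold at rank 1795 of 2502.

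**Figure D3:**
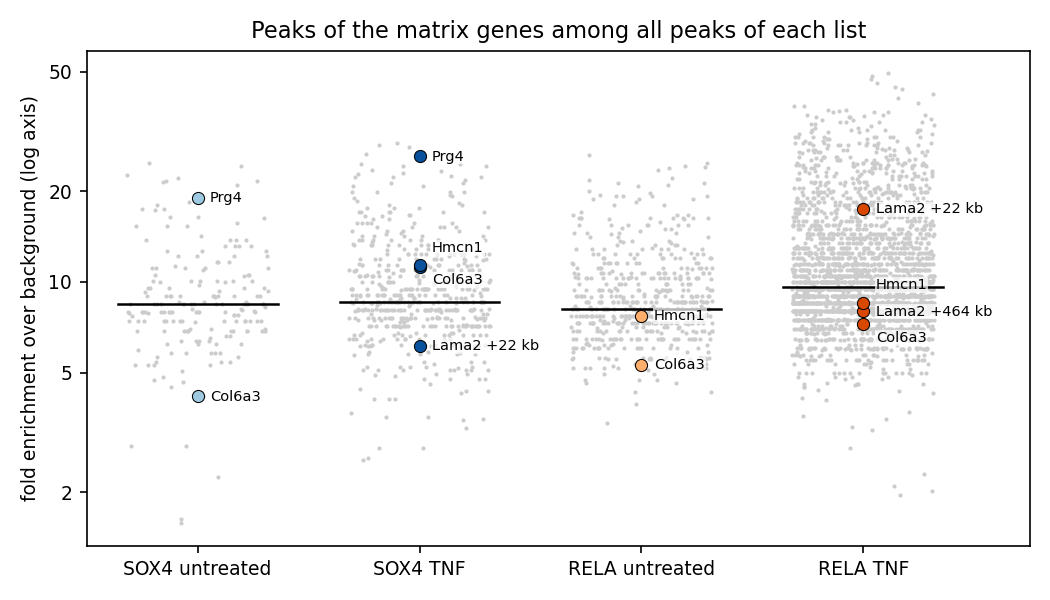
Fold enrichment of every peak of the 4 lists (grey points, y axis on a log scale), with the median of each list as a black line and the peaks at matrix genes as coloured points. Each list is 1 library. Prg4 sits near the top of both SOX4 lists, and Col6a3 lies under the median of every list but SOX4 TNF.

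A TNF difference could be formed at the sites with a peak of the same factor in both conditions. For SOX4 these were Col6a3 and Prg4, out of 161 sites in the series. The log2 ratio of fold enrichment with TNF over untreated was 1.43 at Col6a3, and 1 of the 161 sites had a higher ratio. The untreated SOX4 peak at Col6a3 was weak, at rank 186 of 192 by fold enrichment and with a −log10 q of 3.17. At Prg4 the log2 ratio was 0.46, equal to 2 decimals to the median of 0.46 over the 161 sites, and 78 sites were higher. For RELA they were Col6a3 and Hmcn1, out of 464 sites. The log2 ratio was 0.45 at Col6a3, where 150 sites were higher, and 0.13 at Hmcn1, where 319 sites were higher, beside a median of 0.28. All 4 ratios were above 0, as were those of 146 of the 161 SOX4 sites and 402 of the 464 RELA sites.

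These ratios have no replicate error, and the series has no input labelled as TNF-treated. The deposited fold enrichments move in even steps, of 0.528 (SOX4 untreated), 0.475 (SOX4 TNF), 0.427 (RELA untreated) or 0.499 (RELA TNF). Between 67.2% and 79.9% of the peaks of a list lie on these steps within 0.02 of a step. The RELA difference at Hmcn1, 0.758, comes to 1.77 steps of the untreated list or 1.52 steps of the TNF list. The SOX4 difference at Prg4, 7.12, comes to 13.5 steps of the untreated list. The fold enrichments at Col6a3 do not lie on the steps of their lists. What a step stands for is not given in the sources used here.

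None of the 5 windows of 100 bp held any of the motifs searched on both strands. These were the SOX word NNCAANG with A or T at every N, the NF-κB consensus, the AP-1 word TGANTCA and the word GCTGGGA. Of all windows of a list, 15.7% to 18.2% held a SOX word, 0.44% to 0.552% the NF-κB consensus, 2.58% to 3.12% the AP-1 word and 5.17% to 18.4% the word GCTGGGA.

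The count of matrix genes with a summit was then set beside that of all protein-coding genes. In the SOX4 TNF list it was 4 of 50, or 8.0% (Wilson 95% interval 3.15% to 18.8%), beside 2.03% of all protein-coding genes. In the SOX4 untreated list it was 2 of 50, Col6a3 and Prg4, or 4.0% (1.10% to 13.5%), beside 0.825% of all. In the RELA untreated list it was 2 of 50, Col6a3 and Hmcn1, beside 1.51% of all. In the RELA TNF list it was 3 of 50, Col6a3, Hmcn1 and Lama2, or 6.0% (2.06% to 16.2%), beside 9.26% of all. Over the 4 lists together 4 of 50 matrix genes and 9.98% of all genes held a summit. The intervals cover counting error only, and genes are not replicates. The list was chosen with earlier results of these data known. The intervals therefore do not test whether matrix genes hold more summits than other genes.

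Gene length moved with these counts. The median window, which is the gene body plus 50 kb, was 87450 bp for the matrix genes and 67425 bp for all genes, and a long window has more room for a summit. Lama2 and Hmcn1 have the longest and the second longest body of the 50 genes, 639723 bp and 430912 bp, whereas Prg4 spans 16754 bp. All genes were therefore put in 10 classes by window length, and each matrix gene was given the share of its class. By these shares 0.532 of the 50 genes would hold a SOX4 summit and 1.04 a RELA summit in untreated FLS, and 1.37 a SOX4 summit and 5.97 a RELA summit with TNF. The untreated counts of 2 and 2 and the SOX4 TNF count of 4 were thus above these values, and the RELA TNF count of 3 was below. For a summit of any list the shares gave 6.36 genes, and the count of 4 was below that too. Set beside the share of all genes, the RELA TNF direction turned under 2 alternatives. With the gene of the nearest start alone, 6 of 50 matrix genes (12.0%) and 8.43% of all genes were counted, and on summits outside soft-masked sequence 2 of 50 (4.0%) and 2.33% of all genes. Among peaks whose −log10 q reached 10, the RELA untreated direction turned as well, with 0 of 50 matrix genes beside 1.08% of all genes. With counts this small, 1 or 2 genes decide each difference, and none was tested.

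**Figure D4:**
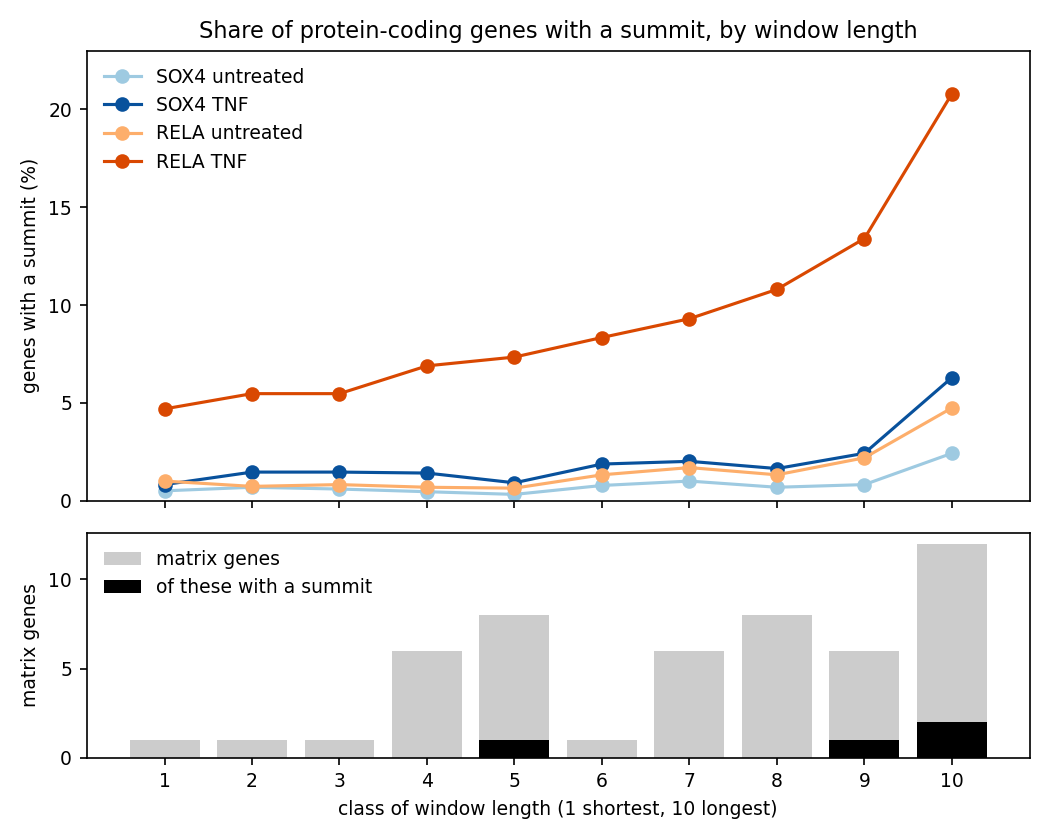
Upper panel, the share of protein-coding genes with a summit in each list (y axis, %) in 10 classes of window length from shortest to longest. Lower panel, the number of matrix genes in each class (grey) and the number of these with a summit in any list (black). In the RELA TNF list the share rises from 4.69% in the shortest class to 20.8% in the longest, which holds 12 matrix genes, 2 of them with a summit.

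By role, summits of any list were found at 2 of the 7 basement membrane genes, Lama2 and Hmcn1. Both are in the longest class of windows, where 22.2% of all genes held a summit, beside 9.98% over all classes. Col4a1 and Col4a2, the network collagens of basement membranes, and the laminin genes Lama4, Lamb1 and Lamc1 held none. Of the 10 fibrillar and associated collagens only Col6a3 held one. The genes of collagen I (Col1a1, Col1a2), collagen III (Col3a1) and collagen V (Col5a1, Col5a2) held none, nor did Col12a1, Col14a1 or the partners of Col6a3 in collagen VI, Col6a1 and Col6a2. Of the 8 proteoglycan and hyaluronan genes only Prg4 held one. The leucine-rich proteoglycans Dcn, Lum and Bgn, the large aggregating proteoglycans Vcan and Acan, and the hyaluronan synthases Has1 and Has2 had no summit. None was found at the 8 structural and matricellular glycoproteins Fn1, Fbn1, Eln, Tnc, Postn, Sparc, Thbs1 and Thbs2. The same held for Lox, which cross-links collagen and elastin, and for the 3 surface receptors Itga5, Itgb1 and Cd248.

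Of the 10 proteases 0 held a summit, beside 9.98% of all genes, which is about 1 gene in 10. Their nearest summits lay 122 kb to 1433 kb away. Among the metalloproteinases, the nearest summit of any list was 1260 kb from the body of Mmp13, a collagenase, and 1433 kb from Mmp3, stromelysin-1. It was 509 kb from Mmp9 and 1211 kb from Mmp2, the gelatinases, and 703 kb from Mmp14, the membrane-bound activator of Mmp2. For the aggrecan-cleaving enzymes it was 122 kb for Adamts4, 1241 kb for Adamts5 and 1178 kb for Adamts1. It was 183 kb for Adamts12 and 206 kb for Ctsk, the collagen-degrading cathepsin K. In each of these 10 cases the nearest summit was of the RELA TNF list, which is also the longest. Mmp13 and Mmp3 had the same nearest summit, and so did Adamts1 and Adamts5, so the 10 distances are not independent. The median over the 10 proteases was 940 kb, beside 336 kb over the 19748 protein-coding genes that held no summit, and Adamts4, Adamts12 and Ctsk were closer than the latter. Of the inhibitors, Timp2 had a summit at 67.6 kb, Timp1 at 413 kb and Timp3 at 1797 kb.

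Over all 46 matrix genes without a summit the nearest one lay 4.31 kb to 4261 kb from the gene body, with a median of 429 kb. It was a RELA TNF summit for 33 of them. Itga5, the fibronectin receptor subunit, was the farthest, and 20 genes had none within 500 kb. The nearest 5 show what the 50 kb upstream rule left out. Col12a1, a collagen that binds to collagen I fibrils, had a SOX4 TNF summit 4.31 kb past its end, enriched 8.08-fold. Lamb1, the laminin β1 chain, had a RELA TNF summit 22.99 kb past its end, enriched 19.8-fold. The RELA TNF summit nearest to Timp2 lay past its end in the body of Cyth1 and was enriched 13.2-fold. Vcan had one 84.7 kb past its end in an intron of Hapln1, a gene for a link protein that ties hyaluronan to proteoglycans, at 27.6-fold. Col14a1 had one 87.6 kb upstream in the body of Deptor, at 9.98-fold.

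**Figure D5:**
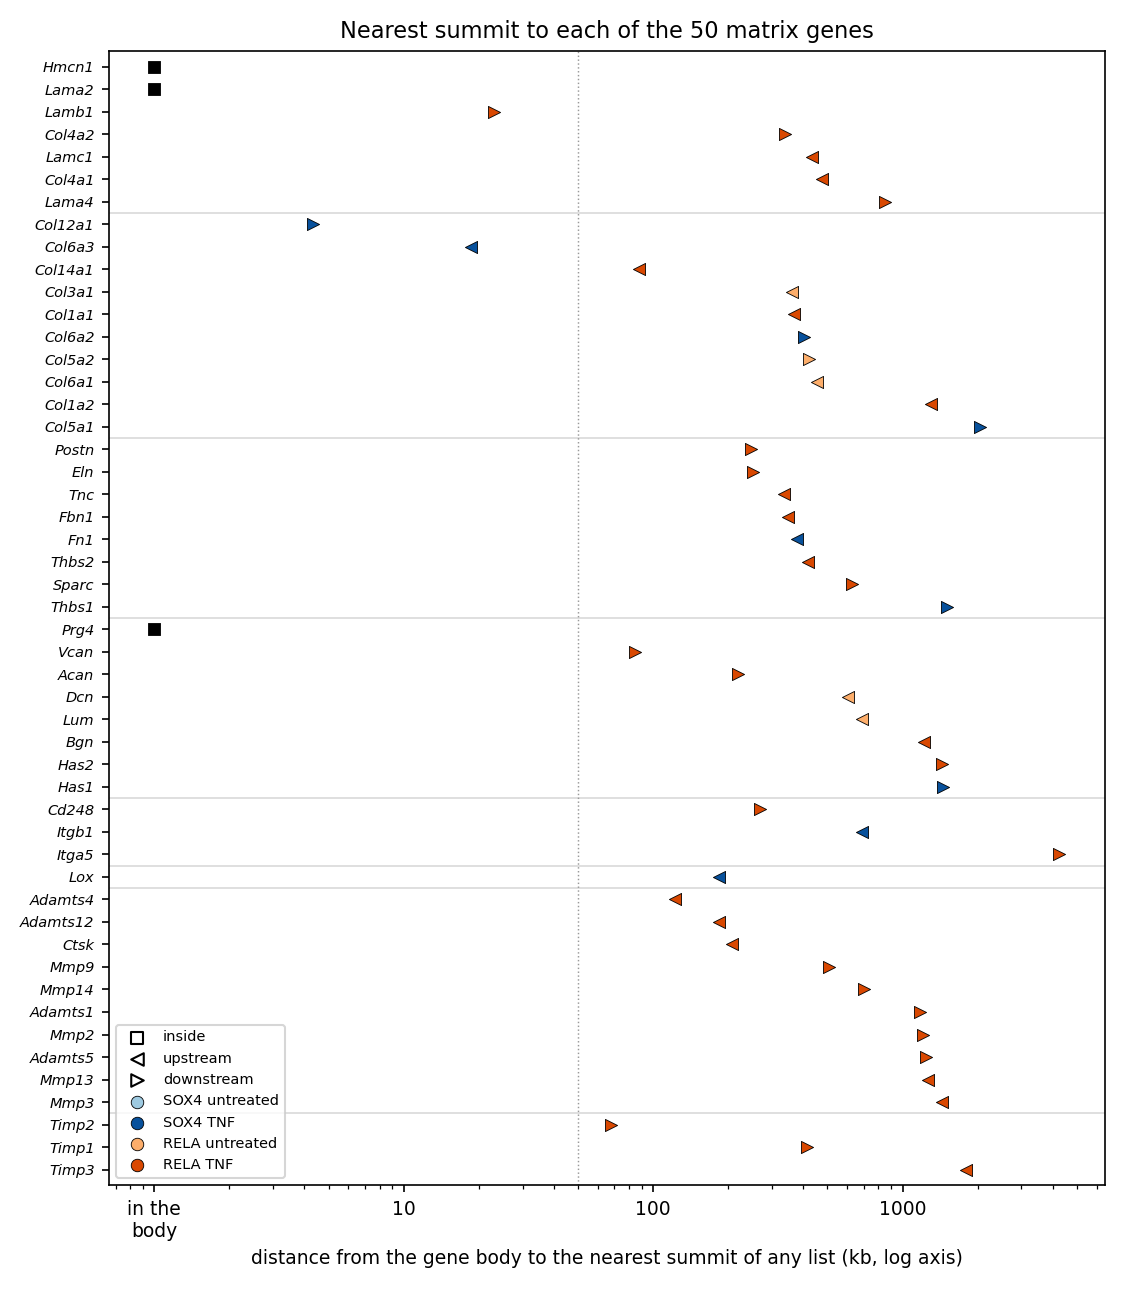
Distance from each of the 50 gene bodies to the nearest summit of any list in kb (x axis, log scale), ordered by role, with genes whose body holds a summit drawn as black squares at the left edge. Colour gives the list, the triangles point left for upstream and right for downstream, and the dotted line marks 50 kb. All 10 proteases lie to the right of the line, at 122 kb or more.

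The wider families of these genes were counted in the same way. Of 213 genes of 16 families of collagens, laminins, proteoglycans, proteases, inhibitors and integrins, 45 of them among the 50, 21 held a RELA TNF summit (9.86%), beside 9.26% of all genes and 25.2 from the length classes. Without the 45 shared genes it was 19 of 168 (11.3%), beside 19.9 from the length classes. Summits of SOX4 untreated were found at 3 of the 213, of SOX4 TNF at 6 and of RELA untreated at 5, beside 2.35, 6.03 and 4.54 from the length classes. Without the shared genes these were 1, 3 and 4 of 168 (0.595%, 1.79% and 2.38%), beside 1.88, 4.80 and 3.61. Both SOX4 counts were then below the length values, unlike those of the 50 genes, and the RELA untreated count was above. Of the 6 genes with a SOX4 TNF summit 3 were Col6a3, Prg4 and Lama2, and Hmcn1 belongs to none of these families. Of the 22 matrix metalloproteinase genes, 2 held a RELA TNF summit, Mmp24 and Mmp19, and no other list had one, beside 1.94 from the length classes over all lists. Of the 24 ADAMTS and ADAMTS-like genes 4 held a summit, beside 3.82, and of the 4 TIMP genes 0, beside 0.364.

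Outside the 50 genes, 3 family genes had a summit in at least 2 lists. Col18a1, the basement membrane collagen from which endostatin is cut, had a summit of all 4 lists about 14.2 kb upstream, outside soft-masked sequence. SOX4 was enriched 6.34-fold untreated and 11.9-fold with TNF there, and RELA 10.3-fold and 12.97-fold. Col4a6, a basement membrane collagen IV chain, had an intron summit for SOX4 with TNF at 8.08-fold and for RELA at 7.72-fold untreated and 8.98-fold with TNF. Adamts20 had a SOX4 TNF summit 28.7 kb upstream at 7.80-fold and a RELA untreated summit 1 bp from it at 7.39-fold. The 5 family genes with the highest fold enrichment were Hapln1 at 27.6, Prg4 at 26.1, Col9a2 at 25.4, Mmp24 at 19.96 and Lama2 at 17.5. For all of these but Prg4 the value is from the RELA TNF list.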

How the data were processed

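The deposited peak lists of 4 ChIP-seq libraries were used, 1 for each condition. Per the methods, the authors aligned single-end reads (mm10) and used the MACS step of Strand NGS. Per the file headers, peaks were found against an input library, with fragments of 300 bases and a p-value limit of 1e-05. The series has 1 input library, whose label names no TNF, so the TNF lists had no labelled TNF input in the series. The submitters' processing notes name MACS2. Each deposited peak has a P score and a Q score, which hold −log10 of its p-value and q-value, and a fold enrichment over background, which is a ratio deposited by the authors. Reads, coverage, input values and RNA-seq were not used here. The handling of duplicate and multiply mapping reads is not given in the sources used here, and both can alter peaks in repeats.

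All peaks were used as listed, with coordinates counted from 1, and the reference and annotation (GENCODE vM21) are of the same build. Summits at most 50 bp apart were joined to 1 site. Each of the 50 matrix genes with a summit was named with its values, the others by role, with nearest summits for proteases, inhibitors and the nearest 5 genes. In the wider families, genes with summits in at least 2 lists and the 5 of highest fold were named. The genes, roles and families were chosen with earlier results of these data known. Shares have Wilson 95% intervals, and no p-value was computed. The alternatives were other upstream limits, both sides, a −log10 q of at least 10, summits not soft-masked, single-copy summits, peak midpoints, any base of the peak, the nearest start alone, other distances between summits, other window sizes and other numbers of length classes. The sequence of 1 site is not reported here. The assignment, distances and word search were tested on simulated data. Scripts ran in Python 3.11.15 with pandas 2.3.3, numpy 2.4.6, matplotlib 3.10.9 and scipy 1.17.1.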

Additional observations from a re-analysis of the deposited data

How the results depend on the processing

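No paired analysis was possible because there is a single pooled library per condition. The 30 results were recomputed to 151 alternative values, of which 87 changed by less than 1.5 times or their interval, 64 moved and 0 reversed. The cause was not tested, except where fewer summits or a shorter window entered. Apart from 8 log2 ratios the values are counts or shares, which cannot change sign, so the 0 reversed carries little weight. A turn against the share of all genes was not counted as reversed. On summits that are not soft-masked, the matrix genes with a summit were 1 in the SOX4 untreated list, 2 in SOX4 TNF, 1 in RELA untreated, 2 in RELA TNF and 2 over all lists, Col6a3 and Lama2, since the Prg4 and Hmcn1 summits are soft-masked. All protein-coding genes then gave 0.962% for SOX4 TNF and 2.33% for RELA TNF, so that the RELA TNF share of the matrix genes, 4.0%, was above that of all genes and not below it. With 5 kb upstream, and with the gene body alone, Col6a3 left and each untreated list kept 1 gene. Among peaks whose −log10 q reached 10, the SOX4 untreated list kept 1 gene, Prg4, and the RELA untreated list 0. All protein-coding genes then gave 0.415% and 1.08%, so that the RELA untreated share of the matrix genes was below that of all genes. With the nearest protein-coding start alone, whatever its distance, the counts were 6 for RELA TNF and 8 over all lists, where Col3a1, Tnc, Col12a1 and Col14a1 joined. The RELA TNF share was then 12.0%, above the 8.43% of all genes. With 50 kb on both sides Col12a1 and Lamb1 joined, and with 100 kb upstream Col14a1 joined. When shared summits had to lie within 10 bp, 0 sites of matrix genes were in all 4 lists. With −log10 q in place of fold enrichment, which also depends on depth, the log2 ratios with TNF over untreated were 2.90 for SOX4 at Col6a3, 0.78 for SOX4 at Prg4, 0.92 for RELA at Col6a3 and 0.28 for RELA at Hmcn1. The share of all protein-coding genes with both sides or with the nearest start alone was computed only after the data were seen. In windows of 200 bp the AP-1 word was present at 2 sites and GCTGGGA at 1, while the SOX word and the NF-κB consensus stayed at 0.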

Other observations

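Col6a1, Col6a2 and Col18a1 lie on chromosome 10. The summit nearest to Col6a1, 455 kb upstream of it, is the one 14.2 kb upstream of Col18a1 that all 4 lists hold, so the partner chains of Col6a3 had no summit closer than 403 kb, the distance for Col6a2.

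Short words that recur in a printed window were counted after the sequences were seen. The word GCATG occurs 3 times in the Col6a3 window, and at least 3 times in 1.1% of the SOX4 TNF windows and 0.959% of the RELA TNF windows, both strands counted. The word GGAAT occurs 3 times in the window of the Lama2 site near the start, and at least 3 times in 4.79% of the SOX4 TNF windows and 2.48% of the RELA TNF windows.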
